A study of Arabidopsis thaliana with 8 samples.

Results

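The arrays considered here ask what 2 h of hypoxia still changes in Arabidopsis seedlings when HRA1, a hypoxia-induced gene for a trihelix DNA binding protein, is already highly expressed in air. They are 4 of the 8 arrays of the study: seedlings of OE-HRA1 lines #1 and #2, each measured once after 2 h of argon-induced hypoxia in dim light and once after 2 h in chambers open to air. Both lines carry 35S:HRA1:FLAG, a tagged HRA1 cDNA driven by the constitutive cauliflower mosaic virus 35S promoter, in the Col-0 ecotype. The other 4 arrays are wild-type Col-0 seedlings, 2 in hypoxia and 2 in air, and serve for comparison. All seedlings were 7 d old, had been grown on plates with Murashige and Skoog salts and sucrose, and were extracted whole as total RNA. Each line was made homozygous for a single insertion and had 1 array per treatment, so the spread between the lines holds both line and array differences. The titles of the Col-0 hypoxia arrays name hypoxia and were followed, although their source field names the air treatment. Shoot and root markers were both present, as fits whole seedlings: RCA, the Rubisco activase, read 14.56 to 14.57 log2 units on all 4 OE-HRA1 arrays, and PYK10, a root beta-glucosidase, 13.54 to 13.99.

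Plants sense low oxygen through group VII ERF transcription factors. In air their N-terminal cysteine is oxidised by plant cysteine oxidases and the proteins are degraded, and when oxygen falls they accumulate and activate genes for sucrose breakdown, glycolysis and ethanol fermentation. A set of core hypoxia genes is induced in most organs and cell types, and includes genes that feed back on the pathway. Oxygen deprivation also triggers calcium and reactive oxygen signals and a general stress response that does not depend on the ERF factors alone.

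Values are log2 signals of the robust multichip average (RMA), and a change is the signal log2 ratio (SLR), the mean in hypoxia minus the mean in air. Differences were tested with limma over 22645 nuclear probe sets, with 2 arrays per group. Calls needed an adjusted p under 0.01 together with an |SLR| greater than 1. In OE-HRA1, 443 probe sets rose and 254 fell, which is 1.96% and 1.12% of those tested. The median SLR of all probe sets was 0.01. The rises were the larger changes. An SLR above 2 was reached by 127 called rises and below -2 by 14 called falls, and of the 51 changes beyond 3 all were rises. Only 2 arrays per group support these counts. Leaving out both arrays of line #1 lowered them to 124 and 31, and leaving out both of line #2 to 112 and 20. Those fits have 1 OE-HRA1 array per treatment, which is assumed to vary like the Col-0 arrays, so fewer calls there do not measure a weaker response. When any single OE-HRA1 array was left out, 310 to 389 rises and 182 to 200 falls were called.

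The lines gave similar changes. All 697 called probe sets moved the same way in both lines without overlap between hypoxia and air. This follows in part from the call itself, which needs a change that is large beside the spread within groups. Arrays that did not overlap were also frequent, at 32% of all probe sets in the upward and 31.1% in the downward direction. The change in line #1 differed from that in line #2 by a median of 0.14 log2 units over all probe sets and of 0.20 over the called ones. The SLR was above 1 in each line for 384 of the 443 rises, and below -1 in each line for 177 of the 254 falls.

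**Figure D1:**
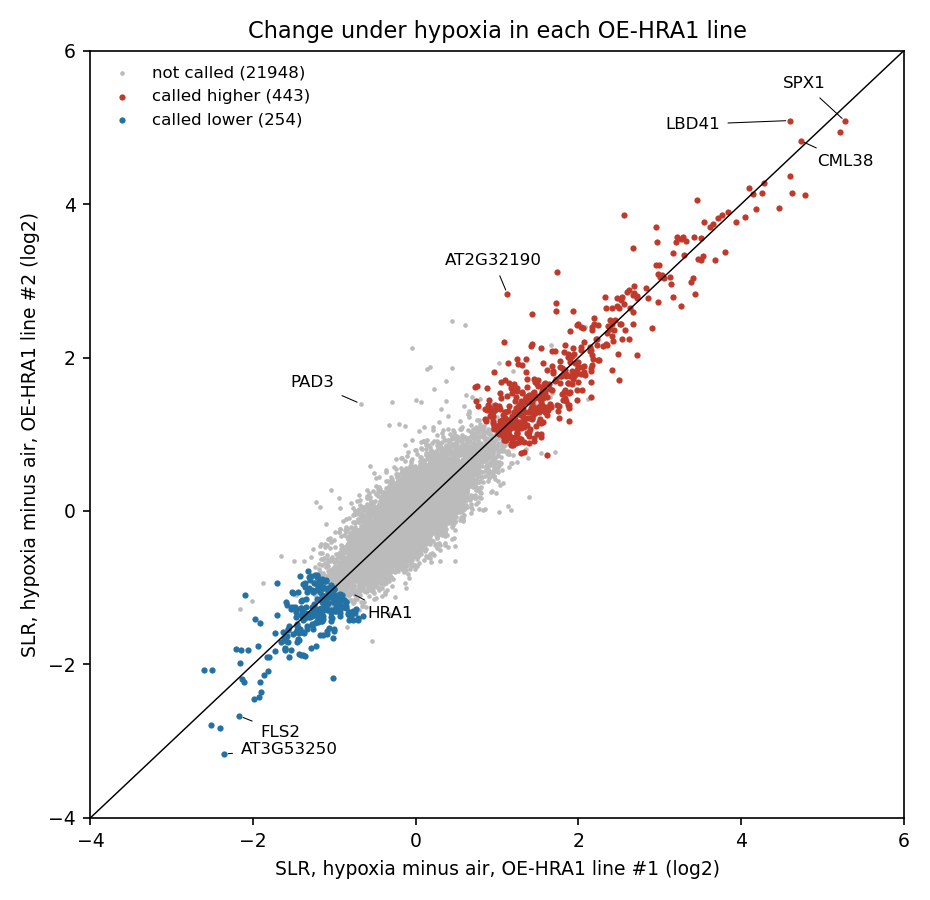
Change under hypoxia (SLR, log2) in OE-HRA1 line #1 (x axis) against line #2 (y axis), 1 point per probe set, with the 443 called rises in red, the 254 called falls in blue and equality as a line. Called probe sets lie along the line, and PAD3 is among uncalled points above it, with a change above 0 in line #2 and below 0 in line #1.

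The array signal of HRA1 did not rise. Its probe set also reads the transgene, so it does not show the endogenous gene apart. By RT-qPCR, the study measured more endogenous HRA1 transcript in hypoxia than in air in both lines, but far less than in hypoxic wild type. Total HRA1 transcript in hypoxia, by the same method, was higher in both lines than in wild type. On the arrays the probe set gave 12.98 and 13.09 in air and 12.19 and 12.02 in hypoxia in lines #1 and #2. It was lower in hypoxia in both lines, by an SLR of -0.93 (SE 0.13, adjusted p = 0.0021, limma), just under the size needed for a call. In Col-0 the same probe set rose by 4.82, and the difference between genotypes was -5.75 (SE 0.19, adjusted p = 2.4e-05). The level in hypoxia lay by the 11.74 and 12.10 of the Col-0 hypoxia arrays, while the level in air was far above the 7.20 and 7.00 of Col-0.

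Most core hypoxia genes were still induced. Of the 46 core genes marked in the study's table of regulated genes, 33 were called higher and 0 lower, against 1.96% of all probe sets, and their median SLR was 1.91. That table holds genes already found regulated in these arrays or in related arrays processed with them, so the list is no independent evidence of the direction. The few core genes outside that table were not analysed here. Among the 24 that the platform annotation names on its own, 19 were called. In Col-0, 45 were called, with a median of 3.29, and the SLR was larger than in OE-HRA1 for all 45 core genes other than HRA1. In OE-HRA1, 22 of the 33 called genes exceeded an SLR of 2. The count was 30 to 32 when any single OE-HRA1 array was left out, and 20 and 18 without line #1 and line #2.

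Genes of oxygen sensing and its feedback rose in 4 of 6 measured cases, against 1.96% of all probe sets, with a median SLR of 2.40. Only 1 of the 6, HRA1, was named independently of the table of regulated genes. It was not called, and its probe set also reads the transgene. LBD41, a LOB-domain transcription factor gene, read 7.90 and 7.58 in air and 12.49 and 12.67 in hypoxia. Its SLR of 4.84 (SE 0.12, adjusted p = 8.8e-07, limma) is the largest of the core genes, and in Col-0 it was 4.99. PCO2 and PCO1, the plant cysteine oxidases that mark the ERF factors for degradation, rose by 2.64 (SE 0.12) and 2.44 (SE 0.11). PCO2 went from 7.85 and 7.99 to 10.48 and 10.64, and PCO1 from 8.36 and 8.31 to 10.75 and 10.80. HB1, a hemoglobin that scavenges nitric oxide, rose by 2.36, from 9.64 and 9.68 to 11.84 and 12.19. HRE1, a hypoxia-induced group VII ERF that the table does not mark as core, read 7.32 and 7.05 in air and 7.22 and 7.77 in hypoxia. Its treatments overlapped, and the SLR of 0.31 (SE 0.21, adjusted p = 0.35) was not called, against 3.69 in Col-0.

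Fermentation split into genes that rose and genes that were not called. Of 9 measured genes of sucrose breakdown, glycolysis and fermentation, 3 rose and 0 fell (median SLR 0.55), while 8 were called in Col-0. Over all probe sets, 1.96% rose in OE-HRA1. Only 3 of the 9 were named independently of the table of regulated genes, and 0 of these were called. PDC1, a pyruvate decarboxylase of the ethanol pathway, read 5.06 and 5.56 in air and 8.68 and 9.26 in hypoxia, an SLR of 3.66 (SE 0.22, adjusted p = 3.2e-05, limma). In Col-0 it read 7.29 and 7.63 in air and 13.48 and 13.56 in hypoxia, an SLR of 6.06. ADH1, the alcohol dehydrogenase, read 8.21 and 8.11 in air and 10.44 and 10.54 in hypoxia. It rose by 2.33 (SE 0.15, adjusted p = 5.1e-05), and the difference from the SLR in Col-0 was -2.04. SUS1, a sucrose synthase, rose by 1.62, to 10.39 and 10.66, against a rise of 2.81 in Col-0. All 3 stood well apart between treatments in both lines. The second sucrose synthase of the list, SUS4, read 6.46 and 6.16 in air and 7.03 and 7.25 in hypoxia, an SLR of 0.83 (SE 0.16, adjusted p = 0.0077) that is below the size for a call and compares with 5.29 in Col-0. PDC2, the other pyruvate decarboxylase, read 10.54 and 10.54 in air and 10.54 and 10.78 in hypoxia, and the phosphofructokinase PFK6 8.18 and 7.92 in air and 7.96 and 7.96 in hypoxia. Neither was called (SLR 0.12 and -0.09, adjusted p = 0.50 and 0.59). PFK3, another phosphofructokinase, and LDH, the lactate dehydrogenase, had SLRs of 0.55 and 0.50 with adjusted p = 0.013 each.

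**Figure D2:**
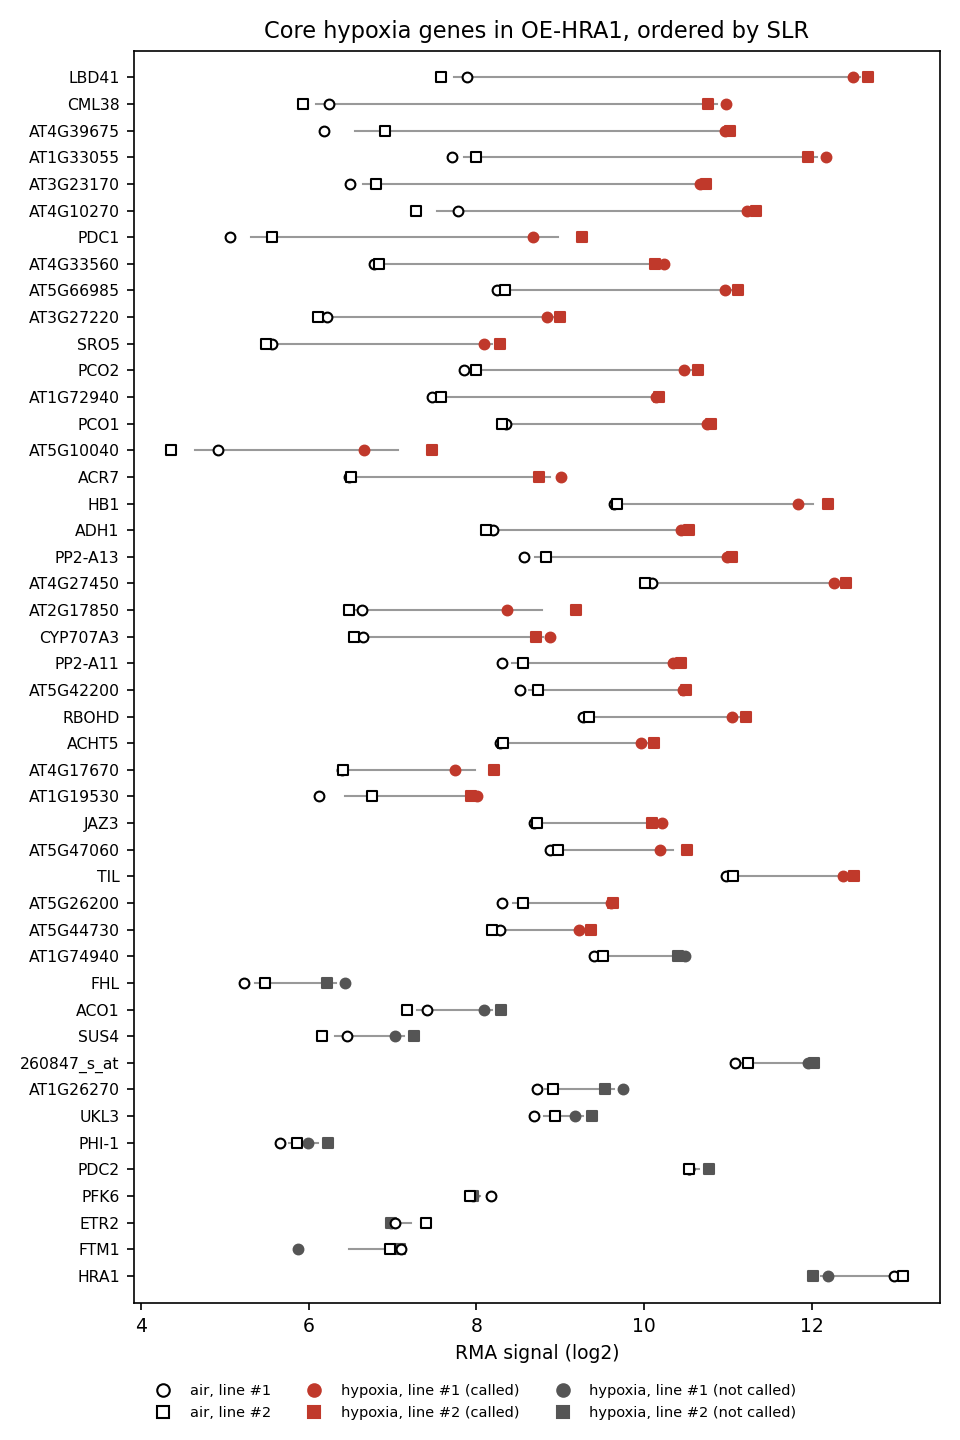
RMA signal (log2) of the 46 core hypoxia genes on the 4 OE-HRA1 arrays, ordered by SLR, with open symbols for air, filled symbols for hypoxia, circles for line #1, squares for line #2 and a bar joining the means. The 33 called genes in red are separated between treatments on both lines, and at the bottom PDC2, PFK6, ETR2, FTM1 and HRA1 show no rise.

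Of the 13 core genes not called, 6 passed the adjusted p but not the size, HRA1 among them. AT1G74940 missed the size narrowly, at 9.40 and 9.51 in air and 10.49 and 10.41 in hypoxia. ACO1, an ACC oxidase of ethylene synthesis, had an SLR of 0.90 (adjusted p = 0.0026), short of the size. PHI-1, a phosphate-responsive gene, had an SLR of 0.35, and ETR2, an ethylene receptor, one of -0.24 (7.03 and 7.41, then 6.98 and 6.98). The lines disagreed on FTM1 (AT1G43800), a stearoyl-ACP desaturase gene. It read 7.10 in air and 5.88 in hypoxia in line #1, and 6.97 and 7.08 in line #2, with an SLR of -0.56 (SE 0.34, adjusted p = 0.30).

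Several of the largest rises were of phosphate-starvation genes. SPX1, a phosphate sensor that restrains the starvation response, read 7.11 and 7.17 in air and 12.39 and 12.25 in hypoxia. Its SLR of 5.18 (SE 0.18, adjusted p = 2.2e-06, limma), a 36.3-fold rise, was the largest of all probe sets. PS2, a phosphate starvation-induced pyrophosphatase, rose by 4.15, from 4.89 and 4.73 to 8.98 and 8.95, and the glycerophosphodiester phosphodiesterases SRG3 and GDPD2 rose by 4.28 and 4.14. SRG3 read 7.80 and 7.89 in air and 12.08 and 12.16 in hypoxia. The lines differed little in these genes, and no hypoxia array came near an air array. In the list of phosphate and iron genes, 6 of 7 measured members rose and 0 fell, against 1.96% and 1.12% of all probe sets. Their median SLR was 2.49, but 6 of the 7 were named only through a table of genes already found regulated. Iron deficiency factors of that list rose too. BHLH101 read 6.17 and 6.55 in air and 9.16 and 9.75 in hypoxia (SLR 3.10), and BHLH39 7.60 and 7.88, then 9.94 and 10.53 (SLR 2.49). SPX3 and SQD2, a sulfolipid synthase, rose by 1.53 and 1.20, but were not called when any one OE-HRA1 array was left out, where 4 of the list were called. MGD3, a galactolipid synthase, was not called (SLR 1.07, adjusted p = 0.024). Chosen after their values were seen, G3Pp1, a glycerol-3-phosphate permease, and PAP17, a purple acid phosphatase, rose by 3.59 and 3.18. SPX1, PS2, SRG3, GDPD2, G3Pp1 and PAP17 also rose in Col-0, by 4.08, 3.72, 3.77, 3.49, 2.71 and 2.47, and the interaction was called for none of them (adjusted p = 0.25 to 0.95).

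Other genes also rose by an SLR above 4. AT5G20790 rose by 5.08, from 6.08 and 6.08 to 11.29 and 11.02, and AT1G72920, a gene for a TIR-domain protein, by 4.48, from 4.89 and 5.09 to 9.49 and 9.45. PBP1, a calcium-binding partner of the PINOID kinase, read 4.85 and 5.08 in air and 9.11 and 9.23 in hypoxia. The core genes AT4G39675 and AT1G33055 rose by 4.45 and 4.21, against 5.64 and 5.29 in Col-0.

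Calcium and reactive oxygen genes were higher in hypoxia. Of 10 measured calcium and reactive oxygen genes, 7 rose and 0 fell, against 1.96% and 1.12% of all probe sets, with a median SLR of 1.60. Only 2 of the 10, both called higher, were named independently of the table of regulated genes. CML38, a calmodulin-like protein, rose by 4.78 (SE 0.14, adjusted p = 1e-06, limma), from 6.25 and 5.93 to 10.98 and 10.76. The touch genes TCH4, a cell wall xyloglucan-modifying enzyme, and TCH3, a calmodulin-like protein, rose by 2.47 and 1.97. RBOHD, an NADPH oxidase, read 9.28 and 9.34 in air and 11.05 and 11.22 in hypoxia (SLR 1.83), and the stress kinase genes MKK9 and MPK3 rose by 1.82 and 1.38. RBOHB, a relative of RBOHD, read 5.40 and 5.34 in air and 5.87 and 5.89 in hypoxia (SLR 0.51, adjusted p = 0.059), against a rise of 2.65 in Col-0.

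Among early stress transcription factors, 16 of 18 measured genes rose, against 1.96% of all probe sets, and 0 fell, with a median SLR of 2.35. Only 4 of the 18 were named independently of the study's regulated genes, and 3 of those 4 rose. ZAT12, a zinc finger factor of the oxidative stress response, read 6.98 and 7.35 in air and 11.02 and 11.17 in hypoxia (SLR 3.94, SE 0.19, adjusted p = 1e-05, limma). ZAT10 rose by 3.50, from 7.03 and 6.98 to 10.45 and 10.56. The factors ERF105, WRKY70, WRKY33, ERF6 and ERF5 rose by 3.77, 3.41, 3.39, 2.85 and 2.76. WRKY53 and CBF3 were not called (SLR 0.29 and 0.32). WRKY46 was called at an SLR of 2.47, but not with the line as a block (adjusted p = 0.014) or without any one OE-HRA1 array. Mean changes in Col-0 were close for most of these genes, for example 4.20 for ZAT12, 3.48 for ZAT10 and 3.93 for ERF105, with interactions of -0.27, 0.02 and -0.15.

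Heat shock and mitochondrial stress genes rose in part. Of 10 measured heat shock genes 4 rose, against 1.96% of all probe sets, with a median SLR of 1.44. Only 5 of the 10 were named independently of the study's regulated genes, and 1 of those 5 rose (median SLR 0.55). DREB2A, a drought and heat transcription factor, read 6.52 and 6.28 in air and 8.76 and 8.53 in hypoxia (SLR 2.24), and the heat shock factors HSFB2A and HSFA4A rose by 1.73 and 1.39. HSP23.5, a mitochondrial small heat shock protein, was called at an SLR of 2.10 but not with the line as a block (adjusted p = 0.015), and HSP22, HSP17.6C and ROF2 were not called (SLR 0.42, 0.55 and 0.09). With any one of the 4 OE-HRA1 arrays left out, 2 of the 10 were called, and HSP23.5 and DREB2A were not (adjusted p = 0.034 to 0.061 and 0.011 to 0.017), although their SLRs stayed between 1.91 and 2.36. Of 8 NAC and mitochondrial stress genes 5 rose, against 1.96% of all probe sets, with a median of 1.58. When any one OE-HRA1 array was left out, 2 or 3 were called. Only 2 of the 8 were named independently of the study's regulated genes, with 0 called and a median of 0.32. OM66, an AAA ATPase of the outer mitochondrial membrane, rose by 3.39, from 5.69 and 5.52 to 8.90 and 9.09, and DIC2, a mitochondrial dicarboxylate carrier, by 2.65. AOX1A, the alternative oxidase, read 8.94 and 9.11 in air and 10.64 and 10.93 in hypoxia. It rose by 1.76 (SE 0.22, adjusted p = 0.0011), but was not called without the air array of line #1 or the hypoxia array of line #2. In Col-0 its SLR of 0.81 was not called, and neither was the interaction (0.94, adjusted p = 0.65).

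**Figure D3:**
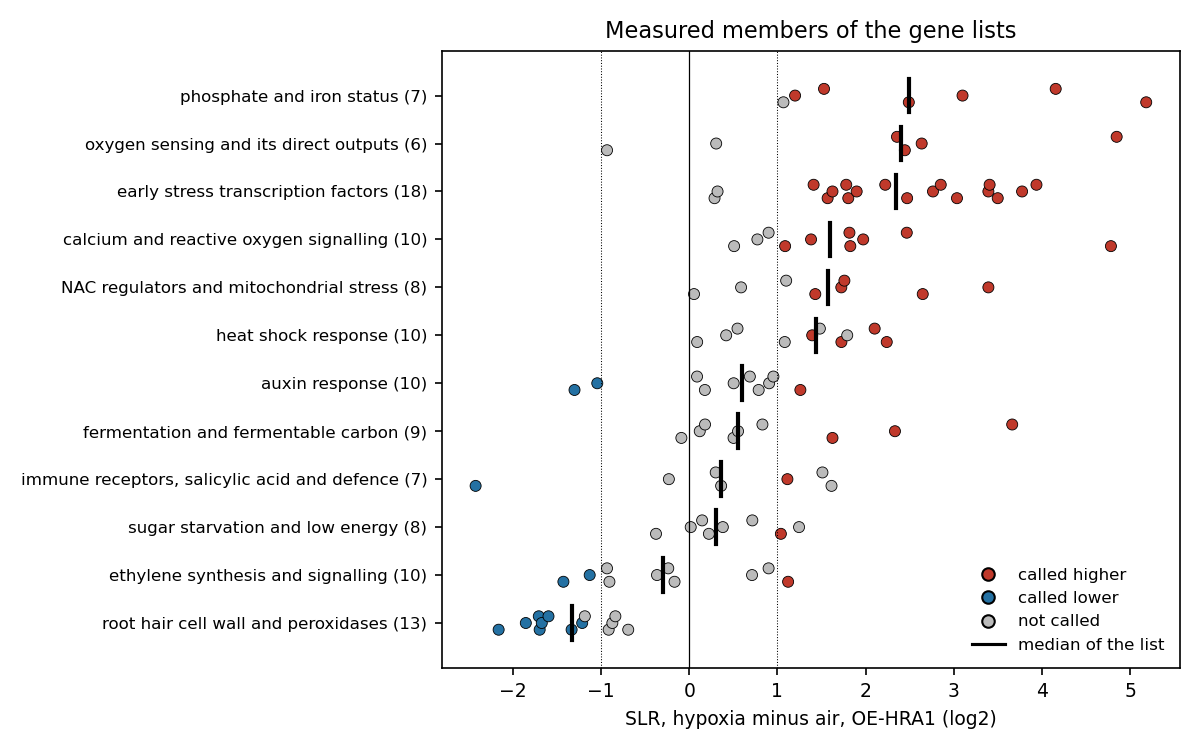
SLR in OE-HRA1 (log2, x axis) of the measured members of each gene list with 6 or more (number in brackets), 1 point per gene, red for called higher, blue for called lower, grey for not called, with the list median as a black bar and dotted lines at the size needed for a call. Phosphate and iron genes and early transcription factors lie far to the right, and all 13 root hair genes lie to the left of 0.

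Falls were smaller and included many root hair genes. Of 13 measured root hair cell wall and peroxidase genes, 8 fell and 0 rose, against 1.12% of all probe sets, with a median SLR of -1.33. Among the 7 named by the platform annotation alone, 5 fell. PER7, a class III peroxidase, read 9.28 and 9.57 in air and 7.15 and 7.39 in hypoxia (SLR -2.16, SE 0.17, adjusted p = 0.00013, limma). EXPA18 and EXPA7, the root hair expansins that loosen the wall, fell by 1.70 and 1.33. EXPA18 went from 7.77 and 8.06 to 6.16 and 6.26, and EXPA7 was not called without the hypoxia array of line #2 (adjusted p = 0.013). PRP3, a proline-rich wall protein, read 9.46 and 9.81 in air and 7.92 and 8.01 in hypoxia, and was called without the air array of line #1 but not without any of the other 3. All these genes were lower on both hypoxia arrays than on both air arrays. The fall of PRP1 (SLR -1.59) was not called with the line as a block (adjusted p = 0.018) or without any one OE-HRA1 array. The list gave 8 calls without the air array of line #1, 5 without the air array of line #2, 5 without the hypoxia array of line #1 and 4 without that of line #2. Of the root markers, 3 of 8 were measured and 0 called, with SLRs of -1.06 for the root aquaporin gene TIP2;3, -0.36 for PYK10 and -0.33 for RCH1, and the 2 measured shoot markers had 0.01 for RCA and 0.11 for SBPASE. RCA read an identical 14.5599 on both air arrays and the hypoxia array of line #1, so its SLR may not follow the shoot RNA. The part of root tissue in these falls was not tested, and in whole seedlings fewer cells of a type and less RNA per cell cannot be told apart.

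The largest falls of named genes were mixed in function. AT3G53250, an auxin-responsive SAUR family gene, read 7.29 and 8.11 in air and 4.93 and 4.95 in hypoxia (SLR -2.76, SE 0.23, adjusted p = 0.00016, limma). FLS2, the receptor for bacterial flagellin, read 6.95 and 7.42 in air and 4.78 and 4.75 in hypoxia (SLR -2.42). The fall of AT1G34510, a peroxidase gene, was as large, at -2.65, from 8.37 and 8.61 to 5.86 and 5.82, but it was not called when any OE-HRA1 array was left out (adjusted p = 0.021 to 0.031). BEE3, a brassinosteroid-enhanced bHLH factor, fell by 2.34, although line #1 went from 9.02 to 6.41 and line #2 only from 9.31 to 7.25. It was called without the hypoxia array of line #2 and not without any other OE-HRA1 array. RHS18, a root hair peroxidase, and EXL5, a protein of the EXORDIUM family, fell by 2.22 and 2.17. The falls of AT3G53250, FLS2, RHS18 and EXL5 also appeared in Col-0, where their SLRs were -2.85, -2.61, -1.57 and -1.84.

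Hormone genes moved in both directions. The auxin efflux carrier gene PIN3 fell by 1.30, while IAA2, an early auxin-response repressor, rose by 1.26. PIN3 read 9.99 and 10.12 in air and 8.83 and 8.68 in hypoxia. PIN7 and PIN4, chosen after their values were seen, fell by 1.65 and 1.60. IAA2 was called only with the air array of line #1 left out, of the 4 OE-HRA1 arrays. In ethylene signalling the receptor gene ERS1 fell by 1.43, from 9.66 and 9.78 to 8.19 and 8.40, EBF2, an F-box gene of EIN3 turnover, by 1.13, and ACS6, an ACC synthase gene, rose by 1.12. The other 7 of 10 were not called, while 1.96% of all probe sets rose and 1.12% fell. Only 2 of the 10 were named independently of the study's regulated genes, and 0 of these were called. EBF2 and ACS6 each kept their call in 1 of the 4 fits without an OE-HRA1 array. CYP707A3, an abscisic acid hydroxylase and a core gene, rose by 2.20. JAZ1, a jasmonate repressor, rose by 1.45, and BR6OX2, an enzyme of brassinosteroid synthesis, fell by 1.01. JAZ1 was not called when any one OE-HRA1 array was left out (adjusted p = 0.015 to 0.020).

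Of 8 measured sugar starvation genes 1 was called higher and 0 lower, against 1.96% and 1.12% of all probe sets. It was SEN5, at an SLR of 1.04 that was not called with the line as a block (adjusted p = 0.014) or without any one OE-HRA1 array. DIN6, an asparagine synthetase gene, read 7.26 and 8.14 in air and 8.98 and 8.92 in hypoxia and was not called (SLR 1.25, SE 0.44, adjusted p = 0.085). Of 7 measured immune genes 1 rose and 1 fell, against the same shares of all probe sets. The receptor-like kinase gene BIK1 rose with an SLR of 1.11, and FLS2 fell. The 1 cell division, 1 chlorophyll and 2 clock genes measured were not called, and neither were the reference genes SAND and TIP41 (SLR -0.47 and -0.09). No member of the nitrogen list had a named probe set. Over gene families named by the platform annotation alone and picked after their values were seen, 3 of 7 calmodulin-like genes rose, 3 of 9 PUB ubiquitin ligases rose and 4 of 10 alpha-expansins fell. Of the others examined, 2 of 6 WRKY factors rose, 2 of 47 UDP-glycosyltransferases fell, 1 rose and 1 fell of both 9 XTH and 26 cytochrome P450 genes, and none of 11 tau glutathione transferases was called. Over all 13421 probe sets named that way, 237 rose and 128 fell.

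Most of the probe sets called in OE-HRA1 were also called in Col-0. The contrasts share no array, but 1 model gave both the same variance for each probe set, so their calls are not independent. Of the 443 rises in OE-HRA1, 316 (71.3%) were among the 458 of Col-0 (69.0% of those), and of the 254 falls 136 (53.5%) were among the 189 of Col-0 (72.0%). In Col-0, 2.02% and 0.835% of probe sets rose and fell. No probe set was called in opposite directions. The 127 rises called only in OE-HRA1 had a median SLR of 1.19 there and of 0.81 in Col-0, and 126 of them were above 0 in Col-0. The 118 falls called only in OE-HRA1 had medians of -1.10 and -0.83, and 117 were below 0 in Col-0. A call in one genotype alone does not show a difference, and limma's interaction was called for 1 of the 127 rises and 0 of the 118 falls. At an unadjusted p under 0.05 it passed for 53 and 32 of them. Both sets were chosen by calls on the same arrays, which favours a low p, so these counts do not show a difference.

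That gene was CML41, a calmodulin-like gene, the only probe set with a called interaction above 0 (0.00442% of those tested). It read 5.89 and 5.86 in air and 7.34 and 7.39 in hypoxia in OE-HRA1. Its SLR of 1.49 (SE 0.08, adjusted p = 1.3e-05, limma) compares with 0.16 in Col-0, an interaction of 1.33 (SE 0.11, adjusted p = 0.0029). Other genes called only in OE-HRA1 had interactions of similar size that were not called. They include BHLH101 (1.68, adjusted p = 0.27), the zinc finger gene ZAT11 (1.27, adjusted p = 0.23) and the glutathione transferase gene GSTU9 (1.21, adjusted p = 0.15). Of these, GSTU9 lost its call in OE-HRA1 in 2 of the 4 fits without an OE-HRA1 array. ZAT11 read 4.93 and 4.96 in air and 6.64 and 7.04 in hypoxia, and rose by 1.90 against 0.62 in Col-0.

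The interaction was below 0 for 37 called probe sets, 0.163% of those tested, in which the change in hypoxia was lower in OE-HRA1 than in Col-0. With the replicate number as a block within each genotype, 65 interactions were called. With the line as a block, 19 were called, and PCO1, ADH1, HRE1, ETR2, ACO1, PFK3 and RBOHB were no longer among them (adjusted p = 0.010 to 0.023) while PDC1 was (adjusted p = 0.0048, against 0.024 without the block). The core genes supplied 21 of the 37, 12 of them still called higher in OE-HRA1. Examples with both a rise and a smaller rise than in Col-0 are SRO5, a relative of the stress regulator RCD1 (SLR 2.66 against 5.69, from 5.56 and 5.50 to 8.10 and 8.28), and AT5G10040, a small gene of unassigned function (2.43 against 7.61, from 4.92 and 4.36 to 6.66 and 7.48). Outside the core genes the interaction was called for BEE1, a relative of BEE3 in brassinosteroid signalling. It read 5.78 and 5.83 in air and 5.57 and 6.01 in hypoxia in OE-HRA1 (SLR -0.01) and rose by 1.98 in Col-0. PFK3 and RBOHB were also outside the core list (interaction -1.54 and -2.14). Leaving out any single array other than the Col-0 hypoxia array of replicate 2 lowered the count of called interactions by over 1.5 times, to 6 or 7 without the air array of line #2 or #1, 10 without either OE-HRA1 hypoxia array, 11 and 12 without the Col-0 air arrays and 24 without the Col-0 hypoxia array of replicate 1. Without either whole line, 1 was called.

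**Figure D4:**
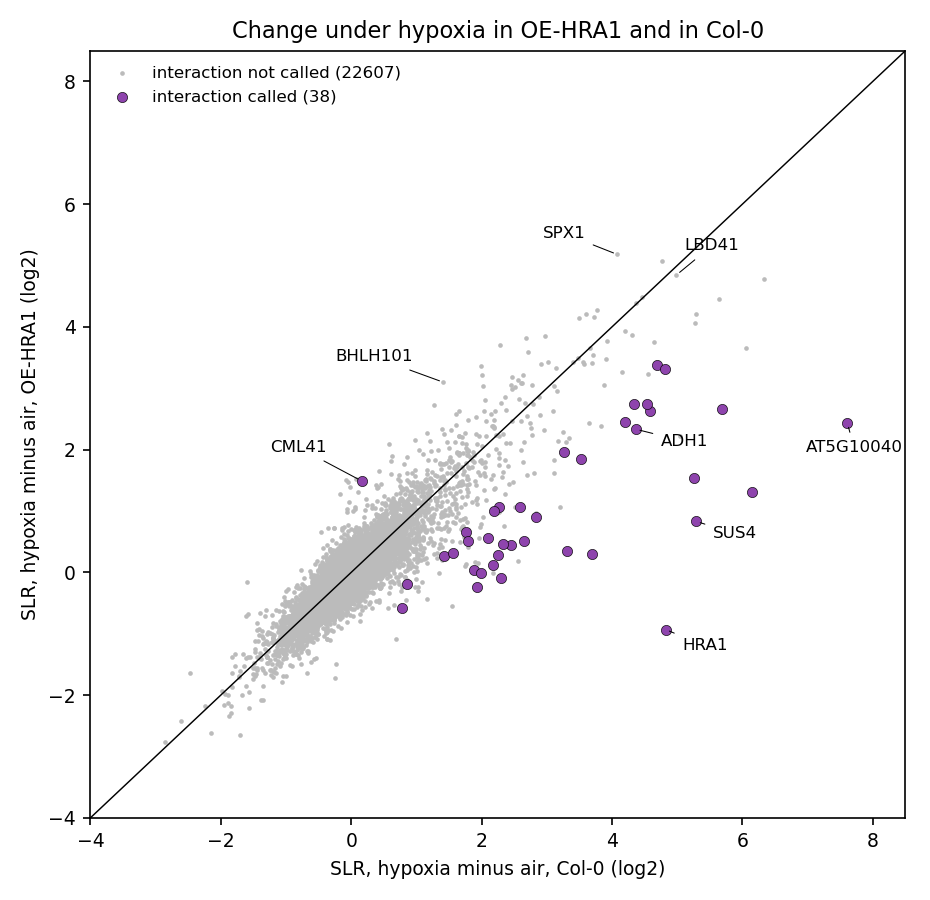
SLR under hypoxia in Col-0 (x axis, log2) against OE-HRA1 (y axis, log2), 1 point per probe set, with the 38 called interactions in purple and equality as a line. The purple points lie below the line except for CML41, and SPX1 and LBD41 rose strongly in both genotypes.

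The lines parted on a small number of genes. The change under hypoxia differed by more than 1 between the lines for 39 probe sets, and in 31 of them the change was higher in line #2. Of the 39, 7 were called, and AT2G32190 had the largest difference among called genes with a name. It read 6.29 and 5.60 in air and 7.42 and 8.43 in hypoxia, a change of 1.13 in line #1 and 2.83 in line #2. It was not called without the air array or the hypoxia array of line #2. SIB1, a sigma factor-binding protein of defence, rose by 2.56 in line #1 and 3.86 in line #2. The uncalled genes were chosen after their values were seen. PNP-A, a natriuretic peptide-like gene, went from 6.03 to 6.64 in line #1 and from 5.67 to 8.09 in line #2. PAD3, which makes the phytoalexin camalexin, went from 8.49 to 7.81 in line #1 and from 7.43 to 8.83 in line #2, and CYP71A12 of the same pathway from 5.75 to 5.98 and from 5.20 to 6.79. In air both camalexin genes were lower in line #2, and in hypoxia both were higher there. AT1G57630, a TIR-domain gene, went from 5.04 to 5.21 and from 4.90 to 6.77, and AT3G18250 from 6.36 to 6.80 and from 6.25 to 8.11. PR1, a pathogenesis-related gene, read 7.17 and 8.04 in air and 8.36 and 9.87 in hypoxia (adjusted p = 0.068). In these uncalled genes the hypoxia array of line #2 was the highest of the 4. Line and array cannot be told apart with 1 array per line and treatment.

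A gene can also differ between the lines in both treatments, which the contrast with hypoxia does not show. Lines #1 and #2 stood more than 1 apart in air for 43 probe sets, in hypoxia for 27, and in both in the same direction for 5. AT4G16410, the extreme of these and chosen after its values were seen, read 6.37 in air and 6.54 in hypoxia in line #1, and 11.75 and 11.91 in line #2. The Col-0 arrays, at 11.43 to 11.52, lay near line #2. The change under hypoxia was 0.17 in line #1 and 0.16 in line #2.

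**Figure D5:**
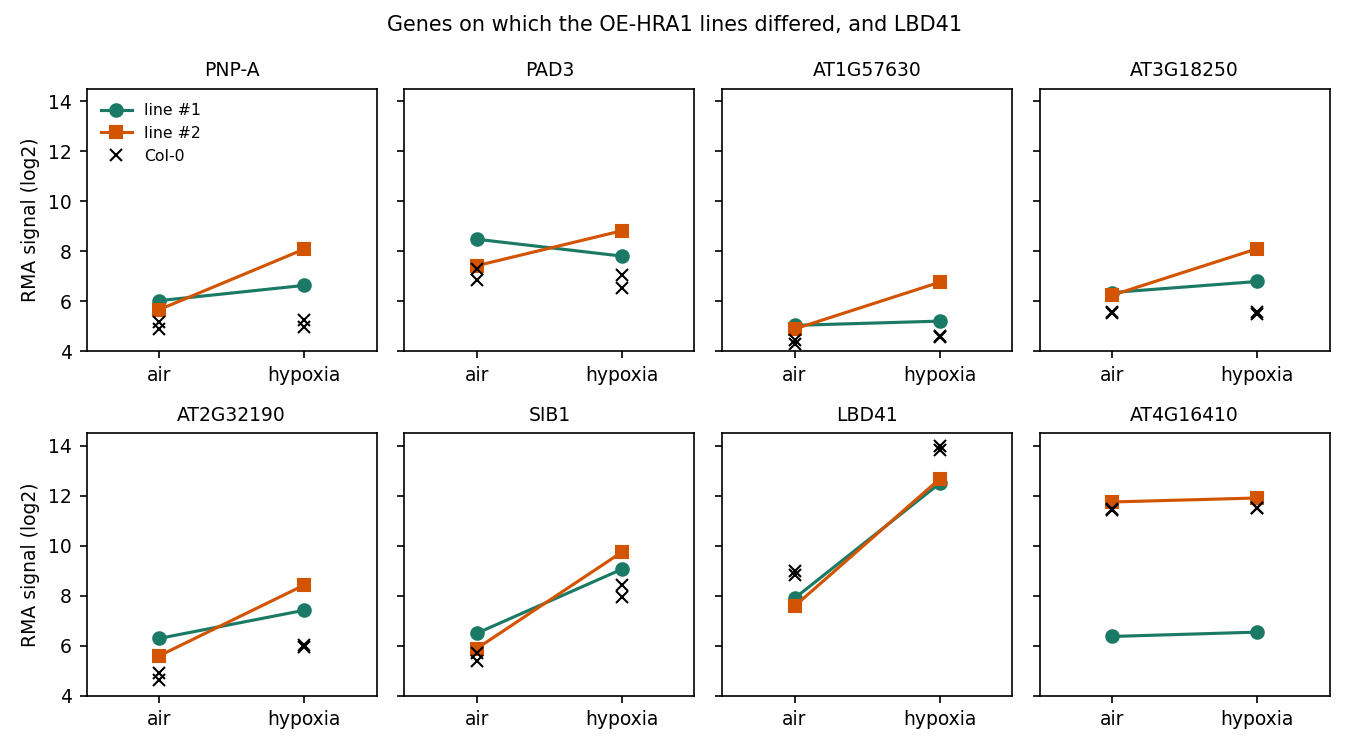
RMA signal (log2, y axis) in air and hypoxia of 7 genes on which the OE-HRA1 lines differed, with LBD41 for comparison, as green circles for line #1, orange squares for line #2 and crosses for the Col-0 arrays. The change was larger in line #2 than in line #1 in PNP-A, PAD3, AT1G57630, AT3G18250, AT2G32190 and SIB1, the lines lay close in LBD41, and AT4G16410 was low in line #1 in both treatments.

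Near the limits of a call, the 3 named genes just inside the |SLR| threshold were AT4G37080, POL and CCR1, all lower, and the 3 just outside were AT5G61990, ABCG35 and CAD1. All 6 had an |SLR| that rounds to 1.00, and each of the 3 inside was called in 2 of the 4 fits that left out an OE-HRA1 array.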

How the data were processed

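Total RNA was hybridised to 8 Affymetrix ATH1 arrays, 2 per group. The authors summarized the scans by RMA, and the deposited table holds log2 values, which were used as given. Their notes also name MAS5 for present calls, which were not repeated. The study's methods describe RMA on these scans jointly with rosette arrays of another data set, and do not say whether the deposited table is from that run. Control (64) and organelle (101) probe sets were left out, leaving 22645. Gene names came from the platform annotation (13421) or, for 573 more, from the study's table of regulated genes, so that counts with those names describe genes preselected as regulated. The other 8651 had no single gene name. A gene with several probe sets entered a list by the one with the highest mean signal.

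A limma 3.58.1 model (R 4.3.3) with 1 mean for each of the 4 groups was fitted to all 8 arrays. It had 4 residual degrees of freedom and a prior worth 4.14, and p-values were adjusted by Benjamini-Hochberg over the 22645 probe sets. The comparisons were hypoxia against air in each genotype and their interaction. The thresholds for a call, an adjusted p under 0.01 and an |SLR| greater than 1, are those of the study. No other test was used, since an exact permutation of 2 against 2 arrays cannot reach 0.05. The OE-HRA1 arrays of a line pair by origin, and their deviations from the group means correlated at 0.15 over probe sets. The fit has no block, as in the study's methods, and the line as a block was an alternative. Whether replicates came from separate cultures is not stated, so p-values measure only the spread between these arrays, whose number limits the precision. Correlations between arrays of a group were 0.994 to 0.997.

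The genes described were HRA1, the 15 largest called rises and falls with a name, the core genes, up to 8 members of each gene list by size, the 10 largest called interactions in each direction, the 5 called genes on which the lines differed most and the 3 nearest the threshold on each side, with only some of these printed. Members and lists were chosen with earlier results of these data known. Other alternatives were filters on signal, normalization, the prior variance, the arrays fitted, the thresholds and leaving out arrays or lines. The code was tested on simulated data.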

Additional observations from a re-analysis of the deposited data

Results flagged for a closer look

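The response to hypoxia differed between OE-HRA1 and Col-0 for 38 probe sets by limma's test of the interaction, 37 with a lower SLR in OE-HRA1 and 1 with a higher. Among fermentation and sugar genes, the interaction was -4.46 for SUS4, -2.39 for PFK6, -2.06 for PDC2, -2.04 for ADH1 and -1.54 for PFK3. In the oxygen-sensing group it was -5.75 for HRA1, -3.38 for HRE1, -1.95 for PCO2 and -1.75 for PCO1. The HRA1 probe set also reads the transgene. Ethylene genes ETR2 and ACO1 had interactions of -2.16 and -1.93, and RBOHB, BEE1 and PHI-1 of -2.14, -1.99 and -2.96. The core genes AT5G10040, SRO5 and AT1G74940 had -5.18, -3.03 and -1.19. CML41 was the exception with 1.33. With the line as a block 19 interactions were called, and of the genes above ADH1, PFK3, HRE1, PCO1, ETR2, ACO1, RBOHB and AT1G74940 no longer passed (adjusted p = 0.010 to 0.023). With 2 arrays per group the other comparisons of single arrays were not screened for outliers.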

How the results depend on the processing

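Signal over background was not available, and 2 arrays per group limit every count. Counts are given as rises and falls. Over the brightest 40% of probe sets, 258 and 126 were called in OE-HRA1, 282 and 96 in Col-0, and 25 interactions. A test against an SLR of 1 (limma's treat) called 129 and 12, 156 and 11, 5 interactions and 21 core genes. With no minimum SLR the counts were 910 and 1354 in OE-HRA1, and 930 and 1063 in Col-0. At an adjusted p under 0.05, 61 interactions were called. With the line as a block, OE-HRA1 had 428 and 246 calls, 671 of the 697 kept, and 33 core genes, and interactions numbered 19. With the replicate number as a block within each genotype they numbered 65. Same-numbered Col-0 arrays, which share only a number, had deviations from the group means that correlated at 0.37. Of the genes named, the line block ended the OE-HRA1 calls of HSP23.5, WRKY46, PRP1 and SEN5 and no others. Leaving out arrays or a line gave 112 to 466 and 20 to 264 calls in OE-HRA1, 365 to 514 and 130 to 255 in Col-0, 1 to 34 interactions and 18 to 33 core genes. Of the 76 called genes followed, 0 changed sign under any alternative run. Of the uncalled genes followed, BEE1 was at 0.0534 with arrays centred on the median and RCA at 0 after quantile normalization. When arrays or a line were left out, the SLR ranged from -0.23 to 0.21 for BEE1, 0 to 0.0149 for RCA, -0.70 to 0.0314 for RCH1, -0.11 to 0.29 for ROF2, -0.20 to 0.0252 for TIP41, -0.22 to 0.0426 for PFK6, -0.67 to 1.40 for PAD3, -0.11 to 0.72 for HRE1 and -1.22 to 0.11 for FTM1. The cause of these changes was not tested.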
